A study of Cavia porcellus with 10 samples.

Results

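The change in gene expression of the guinea pig cervix from mid-pregnancy to late pregnancy is described here. It compares the 4 late-pregnant females (LT) with the 3 mid-pregnant females (MT), which are 7 of the 10 animals sequenced, and it covers the 25028 genes of the deposited table. Animals were placed in these stages by their label alone. All animals were of the outbred Hartley strain, and the part of the cervix that faces the vagina was taken so as to hold little muscle of the uterus. The MT animals were at 43.6 ± 0.5 days of gestation (SD) and the LT animals at 65.2 ± 1.2 days, close to term and not in labor. The gestation age was estimated from the size of the fetuses, the females were bought already pregnant, and nothing in the labels says which fetuses, litters or dates the animals share. Females in estrus that were not pregnant (NP) make up the other 3, and their levels are given as a reference only. The study asked which regulatory changes go with the remodeling of the cervix in a species whose serum progesterone stays high up to birth.

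The cervix is mostly connective tissue, with bundles of smooth muscle, blood vessels, a mucus-secreting glandular epithelium and, on the side of the vagina, a stratified squamous epithelium. Through most of pregnancy it is kept closed by crosslinked fibrillar collagen and by a plug of mucus. In softening and ripening, new collagen is laid down with fewer crosslinks, proteoglycans and hyaluronan change the spacing and water content of the fibrils, the epithelia grow, and toward birth prostaglandins and leukocytes contribute in many mammals.

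Levels are in TPM, a length-corrected share of all transcripts of an animal that sums to 1000000. Fold changes are log2 ratios of LT over MT from edgeR (quasi-likelihood test, deposited read counts of the 7 animals), and every adjusted P given is the Benjamini-Hochberg adjusted value of that test over 13865 genes unless another tool is named. A gene was called higher or lower in LT, or is said to have risen or fallen, at an adjusted P under 0.05. Each call was repeated under up to 19 alternative settings, which changed the test, the scaling, the filter or the set of animals. The settings with limma also used another scale and left out genes that average under 3 TPM in both stages. A call that passed in the same direction in all settings that tested the gene is said to have held. A fit with the replicate number as a block, which calls far fewer genes, and fits with only 1 pair of LT animals are not among these settings. The P-values measure the spread between these animals only. In a homogenate of tissue, fewer cells of a type and less RNA per cell cannot be told apart.

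Between 18730665 and 25380420 reads were counted on genes in the MT animals and between 25804572 and 27881572 in the LT animals. The correlation of expression between animals (Spearman, across genes) was 0.9785 to 0.9902 within MT, 0.9751 to 0.992 within LT and 0.9348 to 0.9681 between the stages. The first principal component, with 61.7% of the variance, separated MT from LT. The second, with 14.2%, separated LT 1 and LT 2 from LT 3 and LT 4, and several lists are therefore also given with only 1 of these pairs in the test. Over all genes 1635 were called with only LT 1 and LT 2 and 3872 with only LT 3 and LT 4. Marker genes of smooth muscle, mucus-secreting and squamous epithelium, fibroblasts and endothelium were present in each of the 7 animals, at a summed level of 1149 TPM or more for each list. Leukocyte markers summed to 10330 TPM or more, of which 86.3% to 95.9% came from S100A8 and S100A9, and without these genes to 767 to 1411 TPM.

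Late pregnancy differed from mid-pregnancy in many genes and in both directions. Of 13865 genes tested, 4474 were called (32.3%), 2171 of them higher in LT (15.7%) and 2303 lower (16.6%), with a median log2 fold change over all genes of 0.01. The split between the directions moved with the scaling of the libraries. With each library scaled to its total, limma on log2(TPM + 1) called 1095 genes higher and 3700 lower, around a median of -0.15, and edgeR called 1473 higher and 3171 lower, around -0.10. With median-ratio scaling on the same log2(TPM + 1) values, limma called 2256 higher and 2040 lower. In TPM, all LT animals lay above all MT animals for 10.5% of genes and below them for 34.5%. Without MT 2, 2376 genes were called, 1036 higher and 1340 lower. Without LT 3 the number called higher was 1426. Of the 44 gene lists used below, 36 had their lowest number of calls, or shared it, without MT 2 when each animal was left out in turn. Counts of called members below stand against the 15.7% and 16.6% of all genes, and falls without overlap in TPM against the 34.5%.

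**Figure D1:**
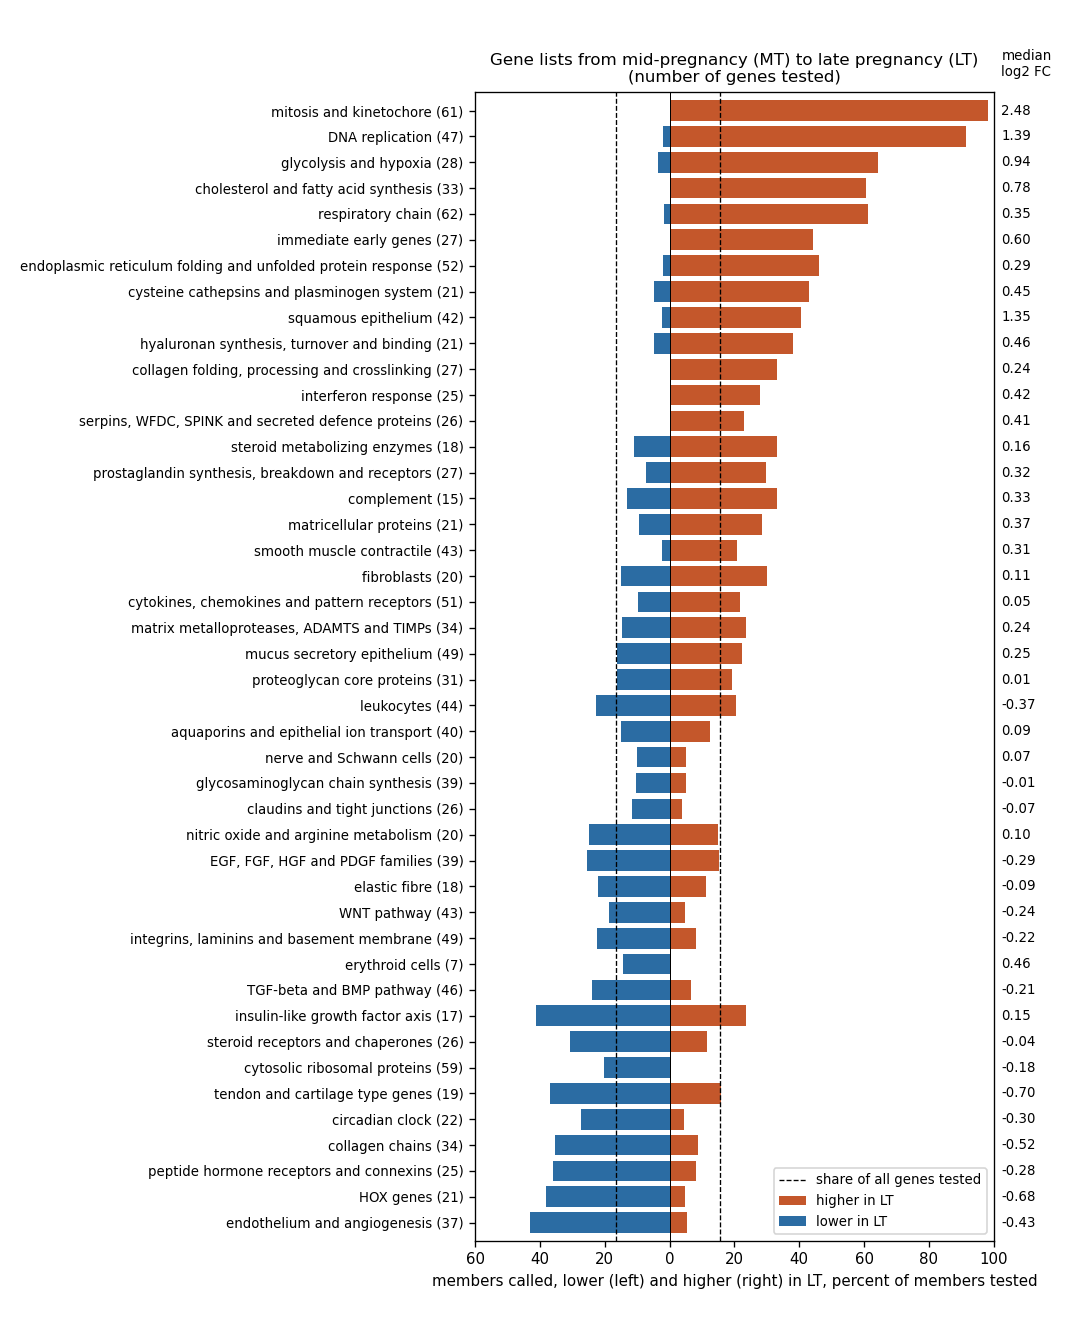
Share of the tested members of each gene list that were called higher (right) or lower (left) in LT than in MT by edgeR (x axis, percent of members, adjusted P under 0.05), with the median log2 fold change printed beside each list. The dashed lines mark the 15.7% and 16.6% called over all 13865 genes. Mitosis, DNA replication and the respiratory chain lie far to the right, and HOX genes and endothelium lie to the left.

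The named genes that rose most were VSIG8, MARCO, CA14, UBE2C, LY6D, ATF5, SLPI, TYMS, RGS1, CDK1, SPC24 and SPC25, among genes of at least 10 TPM in the higher stage whose animals did not overlap. They are known from different cell types and processes, and which cells held these transcripts here was not measured. VSIG8 and LY6D are surface proteins of stratified epithelium, MARCO is a scavenger receptor of macrophages, CA14 is a membrane-bound carbonic anhydrase, SLPI a protease inhibitor of mucus, ATF5 a transcription factor of the stress response and RGS1 a brake on G protein signaling, while the other 5 serve cell division. MARCO (ENSCPOG00000003499) was at 1.02, 0.923 and 0.494 TPM in the MT animals and at 21.6, 7.93, 5.97 and 8.56 TPM in LT (log2 fold change 3.95, standard error 0.54, adjusted P = 0.00411). CA14 (ENSCPOG00000006079) was at 0.964, 2.5 and 1.01 TPM in MT and at 4.9, 10.3, 31.4 and 28.4 TPM in LT (log2 fold change 3.87, standard error 0.78, adjusted P = 0.011). LT 1 was highest for MARCO and lowest for CA14, and for both genes the stages did not overlap. RGS1 (ENSCPOG00000014656) went from 11.1 ± 6.69 TPM (SD, n = 3) to 99.6 ± 82.8 TPM (SD, n = 4), with 222 TPM in LT 4 and 38.5 to 74.5 TPM in the other LT animals. ATF5 (ENSCPOG00000021087) went from 3.99 ± 1.52 TPM to 40.5 ± 38.6 TPM, with 94.3 TPM in LT 4 and 9.79 to 42.6 TPM in the others. The calls of VSIG8, MARCO, CA14, UBE2C, SLPI, TYMS, CDK1, SPC24 and SPC25 held. RGS1 was not called without MT 2 (adjusted P = 0.0549; 0.000119 to 0.0549 over the alternatives), and ATF5 was not called without MT 1, 2 or 3 or by limma on square-root TPM (0.000366 to 0.072 over the alternatives).

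Among the named genes that fell most were RCAN2, LSAMP, TRPM3, MGAM, SPOCK2, CSPG5, SCXB, PAPPA2, KIAA1324 and ALDH1A2, some of which are taken up below with their families. RCAN2 (ENSCPOG00000006723), an inhibitor of the phosphatase calcineurin, was at 43.2, 59.5 and 83.7 TPM in MT and at 10.5, 5.13, 6.49 and 4.77 TPM in LT (log2 fold change -3.04, standard error 0.31, adjusted P = 0.00309). LSAMP (ENSCPOG00000015654), a neural cell adhesion protein, fell from 12.1 ± 3.19 TPM (SD, n = 3) to 1.36 ± 0.336 TPM (SD, n = 4), and TRPM3 (ENSCPOG00000011390), a cation channel, from 10.4 ± 2.0 to 1.23 ± 0.758 TPM. No LT animal reached an MT animal for any of these 3 genes, and their calls held. The list is completed by DEFB136, a defensin at 14, 15.5 and 7.05 TPM in MT, for which 15 and 5 reads were counted in LT 1 and LT 2 and none in LT 3 and LT 4, and by a gene that carries only a protein database entry as its name (ENSCPOG00000000832, log2 fold change -4.92, adjusted P = 0.00399). DEFB136 was not called without MT 1 or 2 or without LT 2, 3 or 4, nor in the fit of all 10 animals (0.00716 to 0.0891 over the alternatives).

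Genes of cell division rose together. Of 61 tested genes of mitosis and the kinetochore, 60 were higher in LT and none lower, against 15.7% and 16.6% of all genes, and the median log2 fold change was 2.48. Their summed level was 454, 266 and 352 TPM in the MT animals and 1308, 1133, 1183 and 888 TPM in the LT animals, with the NP animals at 812, 966 and 673 TPM. UBE2C (ENSCPOG00000014102), the ubiquitin-conjugating enzyme of the anaphase-promoting complex, was at 15.5, 3.71 and 8.45 TPM in MT and at 109, 83.8, 116 and 69.8 TPM in LT (log2 fold change 3.54, standard error 0.43, adjusted P = 0.00339). CDK1 (ENSCPOG00000005402), the kinase that drives entry into mitosis, was at 4.93, 1.29 and 3.14 TPM in MT and at 30, 26.8, 29.8 and 22.6 TPM in LT (log2 fold change 3.30, standard error 0.37, adjusted P = 0.00309). MT 2 was lowest for both genes, and no LT animal overlapped an MT animal. MKI67 (ENSCPOG00000014147), the proliferation marker Ki-67, went from 2.97 ± 2.06 to 13.4 ± 2.43 TPM, and TOP2A (ENSCPOG00000006799), which untangles the chromosomes, from 6.43 ± 4.29 to 34.6 ± 6.37 TPM. With UBE2C, the most abundant members in LT were CKS1B (ENSCPOG00000024061) and CKS2 (ENSCPOG00000014269), small partners of the cyclin-dependent kinases. CKS2 rose from 13.4 ± 9.74 to 60.5 ± 12.1 TPM, and CKS1B, already at 74.2 ± 4.16 TPM in MT, to 105 ± 7.99 TPM. The 1 gene not called was CENPI (ENSCPOG00000005923), a protein of the inner kinetochore, at 20 ± 1.17 TPM in MT against 19.4 ± 1.89 TPM in LT. Of the 60 calls 57 held, and between 57 and 60 genes were called with any animal left out.

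Of 47 tested genes of DNA replication, 43 were higher and 1 was lower in LT, with a median log2 fold change of 1.39. TYMS (ENSCPOG00000015574), thymidylate synthase, was at 1.23, 0.895 and 3.06 TPM in MT and at 24.1, 17.2, 10.7 and 12.9 TPM in LT (log2 fold change 3.35, standard error 0.46, adjusted P = 0.00419). TK1 (ENSCPOG00000005476), the thymidine kinase of S phase, was at 7.39, 3.79 and 7.73 TPM in MT and at 50.2, 38.2, 34.1 and 23.4 TPM in LT (log2 fold change 2.69). In LT 1 and LT 2 the replication genes were higher than in LT 3 and LT 4. Their sum was 1148 and 966 TPM in LT 1 and LT 2, 768 and 711 TPM in LT 3 and LT 4, and 440 to 579 TPM in MT. With only LT 1 and LT 2 in the test, the median was 1.66 and 40 genes were higher. With only LT 3 and LT 4 it was 1.04 and 27 were higher. PCNA (ENSCPOG00000009242), the sliding clamp, was the most abundant member and rose from 75.4 ± 11.9 to 133 ± 28.5 TPM, and RRM1 (ENSCPOG00000013340), the large subunit of ribonucleotide reductase, rose from 33.9 ± 1.24 to 57 ± 9.07 TPM. The replication fork helicase component CDC45 (ENSCPOG00000002270) rose from 0.635 ± 0.562 to 5.09 ± 1.99 TPM, where 1 read was counted in MT 2. The lower gene was CDC7 (ENSCPOG00000012756), the kinase that fires origins, at 15.6 ± 2.19 TPM in MT against 9.91 ± 1.9 TPM in LT, a call that was lost without MT 1, 2 or 3 or LT 2 and in 3 further alternatives (adjusted P = 0.0137 to 0.142). Of the 43 rises, 30 held, and without MT 2 the number called was 31.

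**Figure D2:**
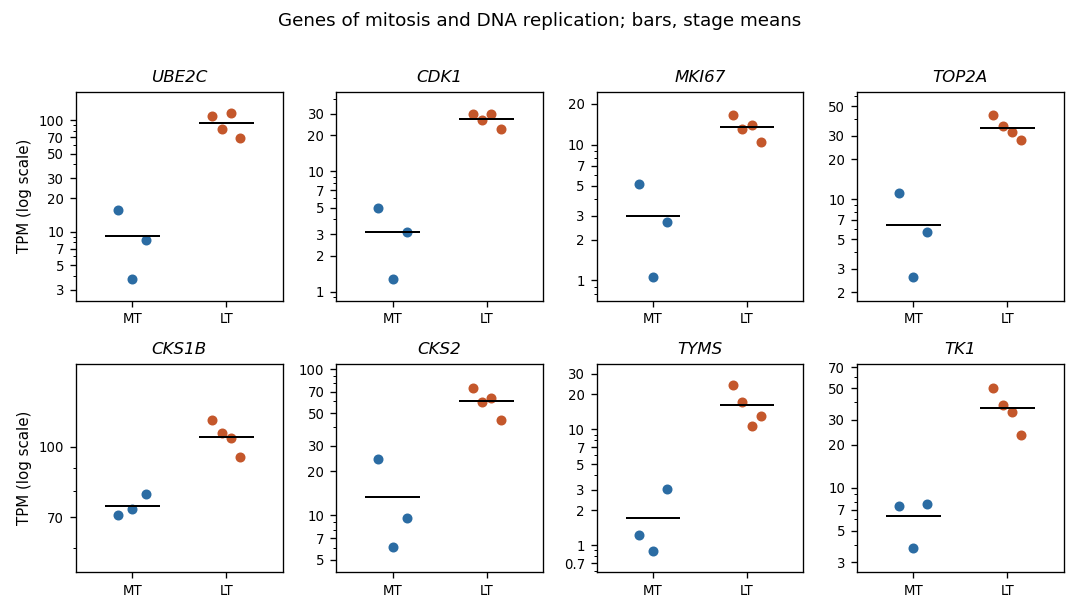
TPM of 8 genes of mitosis and DNA replication in each animal (log axis, 1 panel a gene, 3 MT and 4 LT points with a bar at each stage mean). In all 8 panels each LT animal lies above each MT animal, from 69.8 TPM or more against 15.5 TPM or less for UBE2C to 94.9 TPM or more against 78.8 TPM or less for CKS1B.

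More collagen chains fell than rose, while their total overlapped between the stages. The summed level of the collagen chains was 13300, 8004 and 7571 TPM in MT against 11310, 8438, 8444 and 7686 TPM in LT. Of 34 tested chains, 12 were lower and 3 higher in LT (11 to 14 and 0 to 6 with 1 animal left out), with a median log2 fold change of -0.52, and 8 of the 12 falls held. The median was -0.24 without MT 1 and -0.25 with the trend on gene length removed, and in the fit of all 10 animals 0 chains were higher. Both chains of collagen I, the main fibril of the cervix, were not called, and without MT 1, whose COL1A1 (ENSCPOG00000003329) of 6840 TPM was the highest of the 7 animals, the remaining MT animals were at 3673 and 3495 TPM against 3992 to 6229 TPM in LT (adjusted P = 0.557 with all animals and 0.0663 without MT 1). COL1A2 (ENSCPOG00000010646) was at 1973 ± 753 TPM in MT against 2043 ± 360 TPM in LT, and COL6A2 (ENSCPOG00000021819), of the beaded filaments, at 634 ± 125 and 600 ± 67.7 TPM. Among the abundant chains, 3 fell. COL12A1 (ENSCPOG00000014388), a fibril-associated collagen, was at 551, 373 and 369 TPM in MT and at 235, 144, 66.3 and 118 TPM in LT (log2 fold change -1.45, standard error 0.36, adjusted P = 0.0211). COL15A1 (ENSCPOG00000014886), a collagen of the basement membrane zone, was at 230, 251 and 222 TPM in MT and at 117, 81.1, 76 and 66.5 TPM in LT (log2 fold change -1.29, standard error 0.17, adjusted P = 0.00376). COL6A3 (ENSCPOG00000011331) fell from 446 ± 44 to 225 ± 33.9 TPM. For these 3 genes no LT animal reached the lowest MT animal. COL12A1 was not called without MT 1 or without LT 2 or LT 4 (0.000271 to 0.0563 over the alternatives). COL6A3 was not called with the trend on gene length removed or in the fit of all 10 animals (7.53e-07 to 0.213).

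Several collagens of low abundance fell further. COL25A1 (ENSCPOG00000012595), a transmembrane collagen, fell from 4.28 ± 1.26 to 0.24 ± 0.121 TPM, COL9A2 (ENSCPOG00000011524), known from cartilage, from 19.2 ± 9.56 to 2.54 ± 0.686 TPM, COL27A1 (ENSCPOG00000008089), a fibrillar collagen also known from cartilage, from 28.7 ± 9.35 to 6.71 ± 0.991 TPM, and COL24A1 (ENSCPOG00000001259) from 2.69 ± 0.716 to 0.436 ± 0.0932 TPM. The calls of these 4 genes held. The chains of the common basement membrane collagen were among those called higher. COL4A2 (ENSCPOG00000010611) went from 84.7 ± 18.7 to 116 ± 11.6 TPM and COL4A1 (ENSCPOG00000026271) from 182 ± 24.2 to 214 ± 24.4 TPM. The calls of both were lost without MT 2 or MT 3 and in the fit of all 10 animals (adjusted P up to 0.104 for COL4A2 and 0.313 for COL4A1), and no rise of a collagen held. COL4A1 was not called in 8 further alternatives. The third chain type of that family moved the other way, with COL4A3 (ENSCPOG00000024822) at 2.13 ± 0.449 TPM in MT against 0.36 ± 0.23 TPM in LT (log2 fold change -2.40, adjusted P = 0.0103). Genes typical of tendon and cartilage, a list that shares members with those above, had 7 of 19 members lower and 3 higher (5 to 9 and 1 to 3 with 1 animal left out). Their summed level was 947 to 1165 TPM in MT against 512 to 807 TPM in LT, without overlap. The transcription factor scleraxis of tendon, SCXB (ENSCPOG00000022112), was at 31, 26.1 and 22.8 TPM in MT and at 2.44, 3.51, 1.36 and 3.07 TPM in LT.

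Of 27 tested genes that fold, trim and crosslink procollagen, 9 were higher and none lower (3 to 12 higher with 1 animal left out), with a median log2 fold change of 0.24. PPIB (ENSCPOG00000000255), which isomerizes prolines in the new chain, was at 408, 335 and 441 TPM in MT and at 558, 522, 488 and 493 TPM in LT (log2 fold change 0.56, adjusted P = 0.00981). P4HB (ENSCPOG00000012247), the shared subunit of the prolyl hydroxylases, rose from 374 ± 48.7 to 487 ± 26.9 TPM. LOXL2 (ENSCPOG00000009701), a crosslinking lysyl oxidase, was at 59.9, 43.9 and 43.1 TPM in MT and at 113, 91.6, 95.6 and 85.8 TPM in LT (log2 fold change 1.16, standard error 0.14, adjusted P = 0.00349). These 3 genes had no overlap, and their calls were the 3 of the list that held. LOX (ENSCPOG00000023049), the founding lysyl oxidase, was at 26, 13.5 and 14.5 TPM in MT and at 25.4, 14.2, 28.4 and 28.9 TPM in LT, which overlap (log2 fold change 0.62, adjusted P = 0.174). PCOLCE (ENSCPOG00000025385) and PCOLCE2 (ENSCPOG00000009999), helpers of the protease that removes the C-propeptide, went from 273 ± 82.9 to 418 ± 89 TPM and from 6.38 ± 0.753 to 14.1 ± 5.65 TPM, and P4HA2 (ENSCPOG00000008411), a catalytic prolyl hydroxylase subunit, from 59.5 ± 18.8 to 102 ± 16.6 TPM. All of them lost the call without MT 2 or without MT 3, PCOLCE also without LT 1 or LT 3 and by limma on 3 scales of TPM, and P4HA2 also in the fit of all 10 animals (adjusted P up to 0.112, 0.0631 and 0.082 over the alternatives). Without MT 3, 3 genes of the list were called higher.

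Single proteoglycans moved in both directions. Of 31 tested core proteins, 6 were higher and 5 lower, near the background in both directions (3 to 6 and 2 to 8 with 1 animal left out, 2 lower without LT 2 and 8 without LT 1), and the median log2 fold change of 0.01 was below 0 in 10 of 19 alternatives. SDC1 (ENSCPOG00000008875), a cell surface heparan sulfate proteoglycan of epithelium, was at 267, 126 and 172 TPM in MT and at 304, 426, 346 and 384 TPM in LT (log2 fold change 1.13, adjusted P = 0.0141). LUM (ENSCPOG00000000676), lumican, which spaces collagen fibrils, was at 134, 134 and 111 TPM in MT and at 213, 179, 289 and 290 TPM in LT (log2 fold change 1.13, standard error 0.20, adjusted P = 0.008). Its relatives FMOD and OGN fell. FMOD (ENSCPOG00000000742), fibromodulin, was the most abundant core protein in MT and fell from 675 ± 68.3 to 370 ± 77.6 TPM. OGN (ENSCPOG00000000821), osteoglycin, fell from 145 ± 18.6 to 99 ± 3.84 TPM. BGN (ENSCPOG00000023628), biglycan, was at 79 ± 11.9 and 48.9 ± 18.6 TPM and was not called (adjusted P = 0.153). Without LT 1, whose 70.6 TPM lay among the MT animals, its adjusted P was 0.0422 (0.0422 to 0.366 over the alternatives). SPOCK2 (ENSCPOG00000008188), a testican that binds calcium and glycosaminoglycans, was at 92.8, 154 and 118 TPM in MT and at 10.1, 10.7, 8.06 and 5.29 TPM in LT, the largest fall in the list at a log2 fold change of -3.66. PRG4 (ENSCPOG00000022044), lubricin, was at 0.35, 0.891 and 0.218 TPM in MT and at 0.752, 5.81, 13.2 and 6.8 TPM in LT, where LT 1 lay within the MT animals. SDC1, LUM and SPOCK2 held. FMOD was not called without MT 1, MT 2 or LT 2 (adjusted P up to 0.0569 over the alternatives), OGN not without MT 2 or LT 2 or in the fit of all 10 animals (up to 0.257), and PRG4 not without MT 1 or MT 3 (up to 0.0671).

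Of 21 tested genes of hyaluronan, the large water-binding polysaccharide, 8 were higher and 1 lower, at a median log2 fold change of 0.46 (5 higher in the fit of all 10 animals). LYVE1 (ENSCPOG00000007811), a hyaluronan receptor of lymphatic vessels and some macrophages, was at 30.3, 31.8 and 26.9 TPM in MT and at 85.6, 58.3, 79.7 and 91.2 TPM in LT (log2 fold change 1.59, standard error 0.17, adjusted P = 0.00309). HYAL2 (ENSCPOG00000005249), which cuts hyaluronan at the cell surface, went from 31.8 ± 3.06 to 38.4 ± 1.86 TPM. HMMR (ENSCPOG00000000878) rose from 1.87 ± 0.726 to 8.38 ± 1.45 TPM, but it is also a gene of the mitotic spindle. These 3 calls held. The synthases themselves were low, at 7.41 TPM or less in each of the 7 animals. HAS2 (ENSCPOG00000012474) was at 1.69, 1.49 and 2.92 TPM in MT and at 2.82, 4.13, 7.41 and 5.25 TPM in LT (log2 fold change 1.44, adjusted P = 0.0281), HAS1 (ENSCPOG00000022257) was at 0.485 ± 0.424 and 2.43 ± 1.82 TPM (adjusted P = 0.0661), and HAS3 (ENSCPOG00000005980) at 0.971 ± 0.181 and 0.495 ± 0.18 TPM (adjusted P = 0.0939). CD44 (ENSCPOG00000007792), the main hyaluronan receptor of moving cells, went from 105 ± 31.9 to 159 ± 34 TPM, UGDH (ENSCPOG00000004550), which makes the sugar nucleotide, from 79.8 ± 8.28 to 96.5 ± 11.9 TPM, and ITIH5 (ENSCPOG00000010496), of the family that decorates hyaluronan, was at 165 ± 34.2 and 143 ± 6.97 TPM (adjusted P = 0.905). HAS2 was not called without MT 1 or 2 or LT 3 or 4, and CD44 and UGDH not without MT 2 and in up to 9 other settings (adjusted P up to 0.0978, 0.135 and 0.126). Without MT 2, 3 genes of the list were called higher. Of 39 tested enzymes that build and sulfate glycosaminoglycan chains, 2 were higher and 4 lower (0 to 2 and 1 to 4 with 1 animal left out). HS3ST5 (ENSCPOG00000020028), a heparan sulfate sulfotransferase, fell from 14.7 ± 3.5 to 2.15 ± 1.54 TPM and was the 1 that held.

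**Figure D3:**
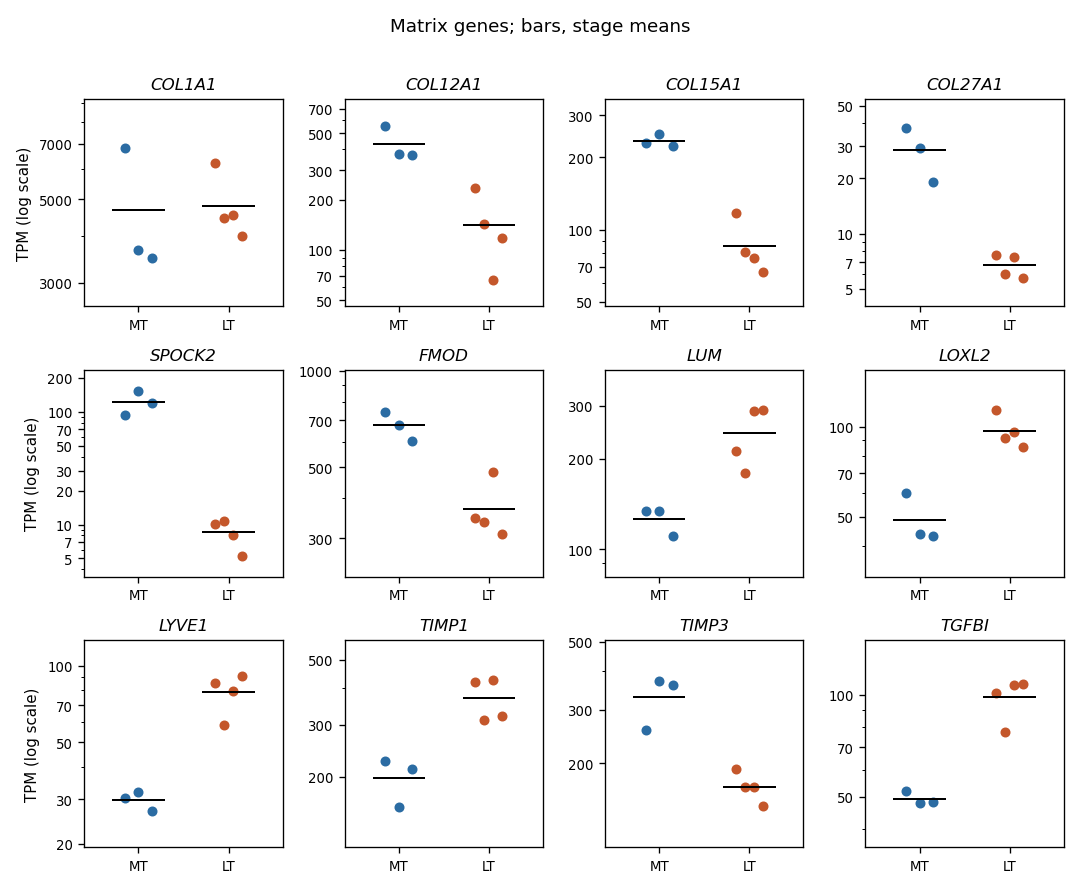
TPM of 12 matrix genes in each animal (log axis, 1 panel a gene, 3 MT and 4 LT points with a bar at each stage mean). COL12A1, COL15A1, COL27A1, SPOCK2, TIMP3 and FMOD lie lower in LT without overlap, LOXL2, LUM, LYVE1, TIMP1 and TGFBI lie higher without overlap, and COL1A1 overlaps.

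The inhibitors TIMP1 and TIMP3 moved in opposite directions. Of 34 tested genes for matrix metalloproteases, ADAMTS proteases and TIMPs, 8 were higher (23.5%) and 5 lower (14.7%), against 15.7% and 16.6% of all genes. The median log2 fold change of 0.24 was -0.08 by limma on log2(TPM + 1), where 24 members were tested and the median over all genes was -0.15. With median-ratio scaling of the same values it was 0.10, with 5 higher and 3 lower. TIMP1 (ENSCPOG00000013119) was at 226, 158 and 212 TPM in MT and at 420, 312, 427 and 322 TPM in LT (log2 fold change 1.08, standard error 0.17, adjusted P = 0.00596). TIMP3 (ENSCPOG00000007312), the inhibitor that stays bound to the matrix, was at 258, 372 and 360 TPM in MT and at 192, 167, 168 and 145 TPM in LT (log2 fold change -0.80, standard error 0.14, adjusted P = 0.00725). TIMP2 (ENSCPOG00000008663), the most abundant TIMP, was at 748 ± 87.7 and 707 ± 108 TPM and was not called. Neither TIMP1 nor TIMP3 overlapped between the stages. MMP2 (ENSCPOG00000020846), gelatinase A, was at 727, 595 and 570 TPM in MT and at 1364, 829, 1116 and 630 TPM in LT, with LT 4 among the MT animals (log2 fold change 0.82, adjusted P = 0.0392). Its activator MMP14 (ENSCPOG00000024551) was at 185 ± 0.614 and 219 ± 29.2 TPM, and MMP19 (ENSCPOG00000009116) rose from 9.55 ± 1.82 to 16.3 ± 1.45 TPM. The neutrophil enzymes were low, with MMP8 (ENSCPOG00000013813) at 0.263 ± 0.137 and 0.777 ± 0.343 TPM and MMP9 (ENSCPOG00000007559) at 8.99 ± 7.09 and 7.27 ± 1.07 TPM (adjusted P = 0.837 for MMP9). ADAMTS8 (ENSCPOG00000003918) was at 1.4, 1.94 and 2.97 TPM in MT and at 3.81, 9.61, 16.7 and 26.4 TPM in LT, while ADAMTS10 (ENSCPOG00000024367), which associates with microfibrils, fell from 74 ± 21.6 to 33.5 ± 6.87 TPM. The calls of TIMP1, TIMP3, MMP19 and ADAMTS10 held. ADAMTS8 was not called without MT 2 (adjusted P = 0.06; 2.49e-06 to 0.06 over the alternatives), and MMP2, MMP14 and MMP8 failed in 10 or more alternatives (adjusted P up to 0.119, 0.118 and 0.157). Without MT 2, 2 members of the family were called higher and 3 lower.

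Of 21 tested genes of cysteine cathepsins, cystatins and the plasminogen system, 9 were higher and 1 lower (5 to 10 and 0 to 1 with 1 animal left out), and the median log2 fold change was 0.45. Their summed level was 3807 to 4783 TPM in MT against 5492 to 5906 TPM in LT, without overlap. CTSZ (ENSCPOG00000026091), a lysosomal carboxypeptidase, was at 23.8, 32.6 and 32 TPM in MT and at 42.4, 50.7, 68.8 and 66 TPM in LT (log2 fold change 1.14, adjusted P = 0.00909). The most abundant members in LT were inhibitors. CST3 (ENSCPOG00000001625), cystatin C, was at 952 ± 59 and 1149 ± 145 TPM, SERPINE2 (ENSCPOG00000002016), an inhibitor of thrombin and urokinase, at 445 ± 248 and 873 ± 137 TPM, and CST6 (ENSCPOG00000026407), a cystatin of stratified epithelium, at 475 ± 132 and 820 ± 162 TPM. All 3 were called higher, but CST6 not without MT 2 (adjusted P = 0.0502), SERPINE2 not without MT 2 or 3 or LT 2, 3 or 4 (0.0016 to 0.107 over the alternatives) and CST3 not in 10 alternatives (0.00453 to 0.137). CTSZ held. CTSB (ENSCPOG00000009125), the most abundant of the enzymes, was at 561 ± 36.9 and 679 ± 90 TPM, in MT above SERPINE2 and CST6.

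Matricellular proteins, which tune how cells read the matrix, had 6 of 21 members higher and 2 lower (3 to 6 and 1 to 3 with 1 animal left out). TGFBI (ENSCPOG00000005652) was at 51.9, 48 and 48.1 TPM in MT and at 101, 77.7, 106 and 107 TPM in LT (log2 fold change 1.17, standard error 0.14, adjusted P = 0.00325), and COMP (ENSCPOG00000025029), a bridge between collagen fibrils, rose from 19.7 ± 7.86 to 51.7 ± 14.9 TPM. THBS2 (ENSCPOG00000027034), a thrombospondin whose loss makes collagen fibrils irregular in mice, was at 76.2, 23.4 and 54.2 TPM in MT and at 109, 81.2, 136 and 133 TPM in LT (log2 fold change 1.34, adjusted P = 0.0328). SPARCL1 (ENSCPOG00000001455) was at 1533, 2100 and 1871 TPM in MT and at 810, 761, 989 and 1000 TPM in LT (log2 fold change -0.86, adjusted P = 0.00989). In MT it was about as abundant as its relative SPARC (ENSCPOG00000025242), at 1976 ± 408 TPM, and in LT SPARC was at 2422 ± 248 TPM. Fibronectin, FN1 (ENSCPOG00000012808), was at 757 ± 136 and 554 ± 146 TPM and was not called. Of 18 elastic fiber genes, 2 were higher (11.1%) and 4 lower (22.2%), against 15.7% and 16.6% of all genes (1 to 4 and 0 to 4 with 1 animal left out). Elastin, ELN (ENSCPOG00000024053), was at 46.9 ± 18.8 and 53.2 ± 8.09 TPM (adjusted P = 0.28, and 0.0206 without MT 1), and its microfibril partner MFAP4 (ENSCPOG00000026738), the most abundant, at 503 ± 147 and 368 ± 83.5 TPM (adjusted P = 0.365). TGFBI and COMP held. THBS2 was not called without MT 3, LT 3 or LT 4 (0.00106 to 0.0799 over the alternatives), SPARCL1 not in the fit of all 10 animals (5.48e-06 to 0.102), and SPARC failed in 13 alternatives (0.0089 to 0.186). Of 49 genes for integrins, laminins and basement membrane, 4 were higher and 11 lower (0 to 8 and 9 to 13 with 1 animal left out). With the trend on gene length removed 8 were higher and 6 lower, and the median log2 fold change turned from -0.22 to 0.09. The largest falls among them were COL4A3 and ITGA10 (ENSCPOG00000002756), a collagen-binding integrin of cartilage, which fell from 7.02 ± 0.286 to 1.47 ± 0.465 TPM.

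Several receptors of steroid hormones fell. PGR (ENSCPOG00000020113), the progesterone receptor, was at 60.6, 55.7 and 51.8 TPM in MT and at 23.5, 31.3, 30.5 and 35.3 TPM in LT (log2 fold change -0.71). ESR1 (ENSCPOG00000008317), the estrogen receptor alpha, was at 144 ± 17.2 and 93.1 ± 11.9 TPM (log2 fold change -0.45, adjusted P = 0.0206). NR3C2 (ENSCPOG00000007770), the mineralocorticoid receptor, fell from 5.81 ± 0.798 to 3.03 ± 0.346 TPM. No LT animal reached an MT animal for these 3 genes, as for 34.5% of all genes. Over the whole list of receptors, their chaperones and coregulators, 8 of 26 were lower and 3 higher (6 to 8 and 1 to 4 with 1 animal left out). These shares were 30.8% and 11.5%, against 16.6% and 15.7% of all genes. The most abundant members, the chaperones HSP90AA1 (ENSCPOG00000002015) at 736 ± 31.2 and 855 ± 146 TPM and HSP90AB1 (ENSCPOG00000003887) at 578 ± 36.8 and 574 ± 57.6 TPM, were not called. PGR held. ESR1 was not called without MT 2 (adjusted P = 0.0714), and neither ESR1 nor NR3C2 was called in the fit of all 10 animals (adjusted P up to 0.174 and 0.084 over the alternatives).

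Among enzymes of steroid and retinoid metabolism, 6 of 18 were higher and 2 lower (2 to 7 and 1 to 2 with 1 animal left out, 2 higher in the fit of all 10 animals). ALDH1A2 (ENSCPOG00000003149), the main enzyme that makes retinoic acid, was at 79.1, 158 and 116 TPM in MT and at 26.6, 15.4, 8.6 and 6.1 TPM in LT (log2 fold change -2.89, standard error 0.47, adjusted P = 0.00596), and its call held. STAR (ENSCPOG00000003330), which carries cholesterol into mitochondria for steroid synthesis, rested on 2 reads in MT 1 and none in MT 2 and MT 3, against 153, 91, 36 and 29 reads in LT. Scaled to the reads counted per stage, the ratio of LT to MT was 90.6, with an exact 95% counting interval of 24.9 to 752 that covers counting error only, and the level in LT was 1.42 to 7.44 TPM. HSD11B2 (ENSCPOG00000010894), which inactivates glucocorticoids, was at 135 ± 32.4 and 116 ± 47.6 TPM and was not called (adjusted P = 0.909). HSD17B14 (ENSCPOG00000008153), a dehydrogenase, went from 1.89 ± 0.936 to 4.5 ± 0.896 TPM, and it was not called without MT 2 or 3 or in the fit of all 10 animals (adjusted P up to 0.126).

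Prostaglandins soften the cervix and start labor in many mammals, and 8 of 27 genes for their synthesis, breakdown and receptors were higher in LT and 2 lower (5 to 9 and 1 to 3 with 1 animal left out). PLA2G4A (ENSCPOG00000003809), the cytosolic phospholipase that frees arachidonic acid, was at 8.54, 6.33 and 8.68 TPM in MT and at 15.4, 14.9, 14.7 and 18.2 TPM in LT (log2 fold change 1.19, standard error 0.15, adjusted P = 0.00362). PTGES (ENSCPOG00000011049), the synthase of prostaglandin E, was at 3.3, 1.96 and 2.5 TPM in MT and at 5.69, 5.65, 5.79 and 6.53 TPM in LT (log2 fold change 1.37, adjusted P = 0.00786). HPGDS (ENSCPOG00000026746), the hematopoietic synthase of prostaglandin D, was at 9.77, 15.5 and 9.04 TPM in MT and at 23.3, 28.1, 50.3 and 73.2 TPM in LT (log2 fold change 2.14, adjusted P = 0.0128). The LT animals were close together for PLA2G4A and PTGES and spread widely for HPGDS, and none of the 3 genes overlapped. PTGIS (ENSCPOG00000027024), the prostacyclin synthase, went from 11 ± 6.36 to 38.2 ± 14.5 TPM, and ALOX5AP (ENSCPOG00000019422), needed for leukotrienes, from 10.2 ± 1.14 to 20.6 ± 6.43 TPM. The other synthase of prostaglandin D, PTGDS (ENSCPOG00000007551), was at 142, 338 and 216 TPM in MT and at 3.04, 109, 35.1 and 21.5 TPM in LT. These do not overlap, but the adjusted P was 0.0774 (0.014 to 0.202 over the alternatives), with LT 1 far below the other LT animals. The receptor PTGDR (ENSCPOG00000006861) fell from 5.36 ± 1.55 to 1.8 ± 0.535 TPM. The secreted phospholipase PLA2G10 (ENSCPOG00000027338) was the most abundant member in LT at 152, 481, 536 and 411 TPM, against 414, 80.3 and 108 TPM in MT, and, among the alternatives, it was called only without MT 1 (adjusted P = 0.191 with all animals and 0.0214 without MT 1, over the alternatives 0.0214 to 0.415). The calls of PLA2G4A, PTGES, HPGDS, ALOX5AP and PTGDR held, and PTGIS was not called without MT 2 (adjusted P = 0.0662; 3.32e-05 to 0.0662 over the alternatives).

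More genes of peptide hormone signaling fell than rose. Of 25 tested genes for these receptors, their ligands and the connexins, 9 were lower and 2 higher (3 to 10 and 0 to 5 with 1 animal left out, 5 higher and 7 lower without MT 1). These shares were 36.0% and 8.0%, against 16.6% and 15.7% of all genes. PTH1R (ENSCPOG00000003882), the receptor of parathyroid hormone and its related protein, was at 19.1, 27.9 and 20.1 TPM in MT and at 7.65, 5.32, 5.18 and 5.46 TPM in LT (log2 fold change -1.74, standard error 0.18, adjusted P = 0.00283). RXFP1 (ENSCPOG00000015517), the relaxin receptor, was at 174, 150 and 125 TPM in MT and at 99.4, 72.1, 57.4 and 40.5 TPM in LT (log2 fold change -0.98, adjusted P = 0.0242). OXTR (ENSCPOG00000020016), the oxytocin receptor, was at 5.73, 7.01 and 7.16 TPM in MT and at 3.45, 3.26, 4.29 and 3.79 TPM in LT (log2 fold change -0.66, adjusted P = 0.0248). All LT animals lay below all MT animals for these receptors, as for 34.5% of all genes. EDNRB (ENSCPOG00000015463), an endothelin receptor, fell from 60.3 ± 28.5 to 20.1 ± 5.24 TPM, and RAMP3 (ENSCPOG00000013360), which pairs with adrenomedullin and calcitonin type receptors, from 106 ± 37.3 to 39.4 ± 9.9 TPM. GJA1 (ENSCPOG00000015249), connexin 43, which couples muscle cells electrically, was at 709, 544 and 443 TPM in MT and at 701, 656, 565 and 570 TPM in LT and was not called (adjusted P = 0.152, and 0.0246 without MT 1). PTH1R held. EDNRB was not called without MT 3 (adjusted P = 0.0511), RAMP3 not without MT 2 (0.0541), RXFP1 not without MT 1 or 2 or LT 2 or 3 (0.00132 to 0.0671 over the alternatives), and OXTR not without MT 2 or 3 and in 3 other settings (0.00436 to 0.0784). Without MT 2, 3 members of the list were called lower.

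Abundant members of the insulin-like growth factor axis moved in opposite directions. IGFBP3 (ENSCPOG00000025683), the main carrier of these growth factors, was at 434, 1143 and 1068 TPM in MT and at 119, 115, 176 and 152 TPM in LT (log2 fold change -2.47, standard error 0.34, adjusted P = 0.00399). IGFBP4 (ENSCPOG00000008055), a carrier that is cleaved by pappalysins, was at 940, 640 and 914 TPM in MT and at 2137, 1965, 3207 and 1847 TPM in LT (log2 fold change 1.64, standard error 0.25, adjusted P = 0.00507). IGFBP7 (ENSCPOG00000024650) rose from 419 ± 13.6 to 808 ± 161 TPM and IGFBP6 (ENSCPOG00000005613) from 350 ± 102 to 664 ± 38.5 TPM, while IGFBP5 (ENSCPOG00000010072), the most abundant, was at 2400 ± 485 and 2884 ± 964 TPM and was not called. IGFBP3 lay above IGFBP4 in MT 2 and MT 3 and below it in MT 1, and in LT it lay far below IGFBP4 in each animal. Of the ligands, IGF1 (ENSCPOG00000023247) was at 283, 235 and 290 TPM in MT and at 412, 385, 534 and 355 TPM in LT (log2 fold change 0.83, adjusted P = 0.0101), and IGF2 (ENSCPOG00000024765) went from 176 ± 3.6 to 117 ± 18 TPM. PAPPA2 (ENSCPOG00000003637), a pappalysin that frees the factors from IGFBP3 and IGFBP5, was at 40.2, 57.1 and 51.3 TPM in MT and at 13.1, 7.31, 1.24 and 0.456 TPM in LT (log2 fold change -3.02, adjusted P = 0.0386). Within LT it was lower in LT 3 and LT 4 than in LT 1 and LT 2. Over the 17 tested members 4 were higher and 7 lower (4 and 3 to 6 with 1 animal left out). IGFBP3, IGFBP4, IGFBP7 and IGF1 held, IGFBP6 failed only in the fit of all 10 animals (adjusted P = 0.0897), PAPPA2 was not called without MT 1, 2 or 3 or LT 2 or 3 (0.0032 to 0.0954 over the alternatives), and IGF2 failed in 7 alternatives, up to 0.099.

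**Figure D4:**
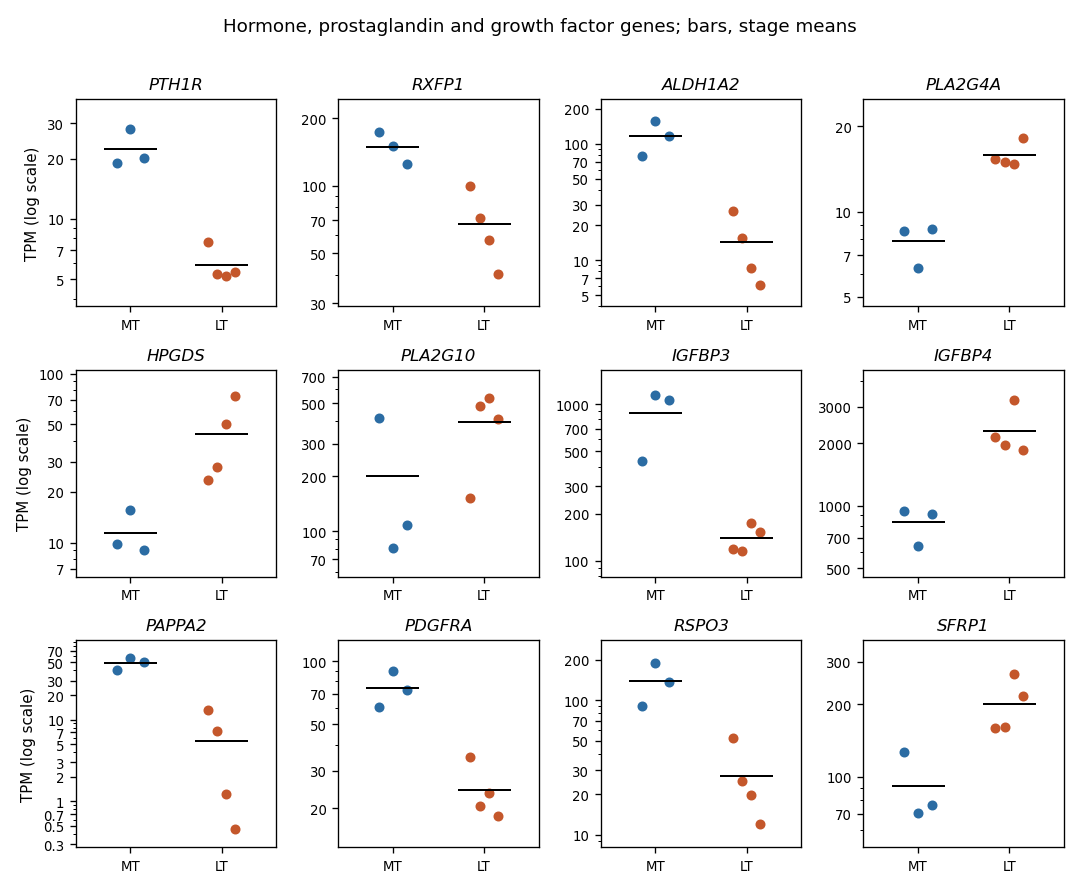
TPM of 12 genes of hormone, prostaglandin and growth factor signaling in each animal (log axis, 1 panel a gene, 3 MT and 4 LT points with a bar at each stage mean). PTH1R, RXFP1, ALDH1A2, IGFBP3, PAPPA2, PDGFRA and RSPO3 lie lower in LT and IGFBP4, PLA2G4A, HPGDS and SFRP1 higher, without overlap, while PLA2G10 overlaps.

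In 3 other growth factor lists 18.6% to 25.6% of members were lower and 4.65% to 15.4% higher, against 16.6% and 15.7% of all genes. The share of WNT genes that fell and that of EGF, FGF, HGF and PDGF genes that rose lay near these background values. In the EGF, FGF, HGF and PDGF families, with their receptors and feedback inhibitors, 10 of 39 members were lower and 6 higher (7 to 12 and 0 to 5 with 1 animal left out). PDGFRA (ENSCPOG00000011782), a receptor of mesenchymal cells, was at 60.2, 89.6 and 73.1 TPM in MT and at 35, 20.5, 23.6 and 18.3 TPM in LT (log2 fold change -1.44, standard error 0.22, adjusted P = 0.00535). FGF10 (ENSCPOG00000006429), a factor that stroma sends to epithelium, fell from 8.64 ± 2.69 to 2.92 ± 0.81 TPM, and its relative FGF7 (ENSCPOG00000003460) from 209 ± 18.1 to 130 ± 20.5 TPM. The exception among abundant members was FGFBP1 (ENSCPOG00000021732), an epithelial protein that frees FGFs from the matrix, at 123, 16.8 and 39 TPM in MT against 186, 345, 366 and 575 TPM in LT. In the WNT pathway 8 of 43 members were lower and 2 higher (5 to 9 and 1 to 3 with 1 animal left out). RSPO3 (ENSCPOG00000000302), a secreted amplifier of WNT signals, was at 89.7, 188 and 137 TPM in MT and at 52.4, 25.2, 19.7 and 12.1 TPM in LT (log2 fold change -2.17, adjusted P = 0.0117). The secreted WNT antagonists split, since FRZB (ENSCPOG00000015013) fell from 48.6 ± 26.2 to 8.07 ± 5.86 TPM and SFRP1 (ENSCPOG00000021998) rose from 91.3 ± 30.8 to 201 ± 51.6 TPM. In the TGF-beta and BMP pathway 11 of 46 were lower and 3 higher (3 to 10 and 1 to 5 with 1 animal left out), and TGFB1 (ENSCPOG00000001214) itself was at 48 ± 2.49 and 45.4 ± 3.18 TPM. HOX genes, which keep positional identity along the reproductive tract, had 8 of 21 members lower and 1 higher (6 to 9 and 0 to 3 with 1 animal left out). The number lower was 1 with only LT 1 and LT 2 in the test and 7 with only LT 3 and LT 4. Their summed level was 282 to 324 TPM in MT against 181 to 188 TPM in LT. HOXA13 (ENSCPOG00000024869), the member that marks the caudal end of the tract, was at 44.5, 61.5 and 53.3 TPM in MT and at 33.5, 28.5, 28.4 and 26.7 TPM in LT (log2 fold change -0.68, adjusted P = 0.00758), and HOXA11 (ENSCPOG00000011369) fell from 70.1 ± 15.2 to 23.7 ± 12.1 TPM. PDGFRA, FGF10, RSPO3, SFRP1 and HOXA13 held. FGF7 was lost without MT 2 or 3 and in the fit of all 10 animals (adjusted P up to 0.124), FGFBP1 without MT 3 (0.0682), FRZB without MT 2 (0.0516) and HOXA11 without MT 2 or 3 or LT 3 (up to 0.0845).

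Single genes of the secretory epithelium rose or fell, while the shares of the list, 22.4% higher and 16.3% lower, lay near the 15.7% and 16.6% of all genes. AGR2 (ENSCPOG00000000018), a disulfide isomerase needed to make mucins, was at 2904, 1250 and 2612 TPM in MT and at 5547, 6982, 6782 and 7559 TPM in LT (log2 fold change 1.75, standard error 0.30, adjusted P = 0.00671). SLPI (ENSCPOG00000026149), an inhibitor of neutrophil elastase, was at 31.1, 25.8 and 8.8 TPM in MT and at 255, 176, 281 and 84.7 TPM in LT (log2 fold change 3.38, adjusted P = 0.00575). MUC5B (ENSCPOG00000027066), a gel-forming mucin, was at 861, 391 and 936 TPM in MT and at 407, 378, 281 and 294 TPM in LT, where MT 2 lay within the LT animals (log2 fold change -0.93, adjusted P = 0.0418). MUC5AC (ENSCPOG00000026378), the other main gel former, rose from 0.246 ± 0.191 to 2.69 ± 1.52 TPM, so it stayed far below MUC5B. KIAA1324 (ENSCPOG00000015712), an estrogen-induced membrane protein of glands, was at 27.8, 76.1 and 49.8 TPM in MT and at 12.4, 7.34, 2.11 and 2.02 TPM in LT. Lactoferrin, LTF (ENSCPOG00000010905), was at 3359, 2687 and 2738 TPM in MT, at 6885 and 6680 TPM in LT 1 and LT 2 and at 1804 and 1535 TPM in LT 3 and LT 4, so the LT pairs lay on either side of MT (adjusted P = 0.347). With only LT 1 and LT 2 in the test it was called higher (log2 fold change 1.35, adjusted P = 0.0229), and with only LT 3 and LT 4 it was called lower (log2 fold change -0.60, adjusted P = 0.0418). WFDC2 (ENSCPOG00000006385), an abundant secreted defence protein, had 7224 and 9386 TPM in LT 1 and LT 2 and 5043 to 5574 TPM in all other animals of the 7. Of 49 tested genes of the mucus-secreting epithelium, 11 were higher and 8 lower (5 to 14 and 2 to 9 with 1 animal left out). With only LT 1 and LT 2 in the test the counts were 9 and 2, and with only LT 3 and LT 4 they were 6 and 9. By limma on log2(TPM + 1) 7 were higher and 10 lower, and with median-ratio scaling of these values 13 and 6. In the fit of all 10 animals the counts were 7 and 3. Summed over the list, MT animals lay between 13680 and 17830 TPM, LT 1 and LT 2 at 26420 and 30840 TPM, and LT 3 and LT 4 at 19380 and 21280 TPM. These sums include AGR2, at 1250 to 2904 TPM in MT and 5547 to 7559 TPM in LT. The separation of LT 3 and LT 4 from MT in the sum depends on this gene. AGR2, SLPI, MUC5AC and KIAA1324 held, while MUC5B failed in 8 alternatives (0.00459 to 0.267).

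Genes of protein folding in the endoplasmic reticulum and of the unfolded protein response had 24 of 52 members higher and 1 lower. CALR (ENSCPOG00000000791), the calcium-binding chaperone calreticulin and the most abundant member, was at 1199, 878 and 1197 TPM in MT and at 1720, 1747, 1488 and 1580 TPM in LT (log2 fold change 0.76, adjusted P = 0.00818). The largest rises were those of SDF2L1 (ENSCPOG00000024279), CRELD2 (ENSCPOG00000027432) and DNAJB11 (ENSCPOG00000001055), helpers of the chaperone BiP, with log2 fold changes of 1.06, 1.00 and 0.88. PDIA3 (ENSCPOG00000008187), a disulfide isomerase, rose from 728 ± 129 to 958 ± 53.9 TPM. XBP1 (ENSCPOG00000007796), the transcription factor that builds secretory capacity, was at 786 ± 104 and 866 ± 138 TPM and was not called (adjusted P = 0.119). The rises were small, the median over the list being 0.29 on the log2 scale, and 11 of the 24 held, including all 5 named here. Without MT 2 and by limma on log2(TPM + 1) the number called higher was 13, and it was 9 with only LT 1 and LT 2 and 18 with only LT 3 and LT 4.

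Among genes of the squamous epithelium, nearly all those called were higher in LT, and the MT animals were widely spread. Of 42 tested genes, 17 were higher and 1 lower, at a median log2 fold change of 1.35. The summed level was 4135 TPM in MT 1, 1313 and 1816 TPM in MT 2 and MT 3, 3903 TPM in LT 1 and 6001 to 8579 TPM in LT 2 to LT 4. Without MT 1, 33 genes were called higher, and without MT 2 only 4. In the fit of all 10 animals 6 were higher. The number higher was 2 with only LT 1 and LT 2 in the test and 14 with only LT 3 and LT 4. KRT14 (ENSCPOG00000006839), the keratin of the basal layer, was at 1142, 133 and 369 TPM in MT and at 1430, 2253, 2464 and 2803 TPM in LT (log2 fold change 2.22, adjusted P = 0.0379). VSIG8 (ENSCPOG00000003207) was at 1.58, 2.17 and 3.3 TPM in MT and at 4.28, 47.5, 49 and 51.1 TPM in LT, with LT 1 near the MT animals and far below the other LT animals. CALML5 (ENSCPOG00000006541), a calmodulin of late keratinocytes, was at 10.2, 0.947 and 1.19 TPM in MT and at 7.19, 42.5, 45.3 and 164 TPM in LT. LY6D (ENSCPOG00000021617) went from 8.35 ± 12.7 to 81.7 ± 39.7 TPM, PERP (ENSCPOG00000003799), a desmosome protein, from 581 ± 244 to 1312 ± 388 TPM, and SPINK5 (ENSCPOG00000014264), the protease inhibitor that protects the horny layer, from 0.698 ± 0.933 to 6.92 ± 2.91 TPM. TP63 (ENSCPOG00000014770), the transcription factor that defines the lineage, was at 37 ± 11.2 and 40.8 ± 8.55 TPM (adjusted P = 0.344), and IVL (ENSCPOG00000001205), the envelope protein involucrin, fell from 2.55 ± 0.568 to 0.528 ± 0.424 TPM. Of these calls VSIG8 held. The other 6 were lost without MT 2, and all of them except SPINK5 also in at least 2 other alternatives. The adjusted P reached 0.114 for KRT14, 0.109 for CALML5, 0.0803 for LY6D, 0.072 for PERP, 0.0531 for SPINK5 and 0.14 for IVL over the alternatives. S100A8 (ENSCPOG00000001680), which both this epithelium and neutrophils make, was at 5490, 2022 and 3414 TPM in MT and at 6993, 10800, 7697 and 10710 TPM in LT (log2 fold change 1.49, adjusted P = 0.0157, 0.0521 without MT 3), while its partner S100A9 (ENSCPOG00000001685) was at 7599 ± 628 and 8006 ± 1021 TPM and was not called.

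Transport of water and ions had 5 of 40 members higher and 6 lower (2 to 9 and 3 to 6 with 1 animal left out), below the background in both directions. AQP3 (ENSCPOG00000012277), the water and glycerol channel of stratified epithelium, was at 180, 39.4 and 59.3 TPM in MT and at 214, 384, 342 and 319 TPM in LT (log2 fold change 1.94, adjusted P = 0.0242), and like the squamous genes it was highest in MT 1 among the MT animals. FXYD4 (ENSCPOG00000010407), a regulator of the sodium pump, rose from 16 ± 6.7 to 61.4 ± 21.1 TPM. SLC36A2 (ENSCPOG00000008306), a proton-coupled carrier of small amino acids, was at 26.5, 27.7 and 33.1 TPM in MT and at 10.7, 5.04, 3.33 and 1.99 TPM in LT (log2 fold change -2.31, adjusted P = 0.0104). The most abundant members, KCNE3 (ENSCPOG00000022218) at 1258 ± 249 and 1202 ± 332 TPM and the tight junction protein CLDN1 (ENSCPOG00000010741) at 2518 ± 578 and 2451 ± 218 TPM, were not called. Of 26 claudins and other tight junction genes, 1 was higher and 3 lower (1 to 2 and 0 to 4 with 1 animal left out, 11 lower by limma on log2(TPM + 1)). FXYD4 and SLC36A2 held, and AQP3 was not called without MT 2 or 3 or LT 2 or 3 (0.00344 to 0.078 over the alternatives).

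Smooth muscle transcripts divided the late animals. The summed level of the 44 contractile genes was 23800, 34570 and 28170 TPM in MT, 33070 and 33320 TPM in LT 1 and LT 2, and 58050 and 60730 TPM in LT 3 and LT 4. LT 1 and LT 2 thus lay within MT, and LT 3 and LT 4 above every other pregnant animal. Of 43 tested, 9 were higher and 1 lower (2 to 15 and 1 to 2 with 1 animal left out). With only LT 1 and LT 2 the number higher was 2, and with only LT 3 and LT 4 it was 20. It was 1 in the fit of all 10 animals and 16 by DESeq2. ACTG2 (ENSCPOG00000006846), the gamma actin of visceral muscle, was at 3008, 4020 and 2828 TPM in MT and at 5964, 5017, 15690 and 16310 TPM in LT (log2 fold change 1.91, adjusted P = 0.0217). SMTN (ENSCPOG00000012362), smoothelin, was at 59.4, 71.5 and 54.8 TPM in MT and at 83.1, 129, 200 and 216 TPM in LT (log2 fold change 1.54, adjusted P = 0.0142). ACTA2 (ENSCPOG00000011582), which myofibroblasts share, was at 5132 ± 1080 and 7048 ± 1924 TPM, and MYH11 (ENSCPOG00000008692), the muscle myosin, at 997 ± 233 and 1083 ± 273 TPM, and neither was called. TAGLN (ENSCPOG00000008708) and DES (ENSCPOG00000002458) were called higher at 6170 ± 1862 and 2500 ± 969 TPM in LT against 3470 ± 917 and 1324 ± 225 TPM in MT. SMTN held. ACTG2, TAGLN and DES were lost without MT 1 or MT 3 and in several other settings (adjusted P up to 0.0881, 0.132 and 0.164 over the alternatives). These values cannot tell a different share of muscle in the dissected piece apart from more contractile transcripts per muscle cell. The part of this difference between the LT pairs in the other results was not tested.

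**Figure D5:**
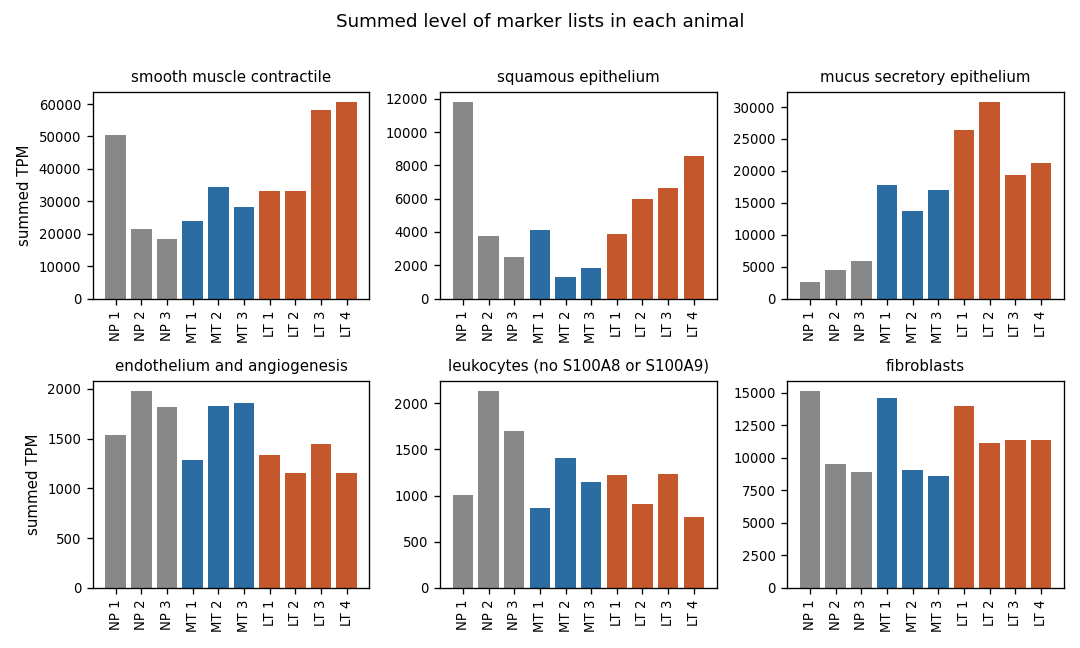
Summed TPM of 6 marker lists, the leukocyte list without S100A8 and S100A9, in each of the 10 animals (y axis from 0, 1 panel a list, bars grouped by stage with NP as a reference). The smooth muscle bars of LT 3 and LT 4 reach 58050 and 60730 TPM against 33320 TPM or less in LT 1 and LT 2. The squamous bars are highest in NP 1 and LT 4, with MT 1 at 4135 TPM above LT 1 and below LT 2 to LT 4. The sum of the mucus-secreting list is higher in each LT animal than in each MT animal, which for LT 3 and LT 4 depends on AGR2.

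Many vessel genes fell. Of 37 tested genes of endothelium and angiogenesis, 16 were lower and 2 higher (9 to 20 and 2 with 1 animal left out), with a median log2 fold change of -0.43, and 8 of the falls held. KDR (ENSCPOG00000010001), the main receptor of VEGF, was at 23.3, 29.7 and 28.5 TPM in MT and at 14.9, 12.9, 12.4 and 9.1 TPM in LT (log2 fold change -0.97, standard error 0.15, adjusted P = 0.00552). EGFL7 (ENSCPOG00000007175), secreted by endothelium, fell from 30.4 ± 5.06 to 12.5 ± 2.42 TPM, and NOS3 (ENSCPOG00000004373), the endothelial nitric oxide synthase, from 9.31 ± 2.03 to 4.72 ± 0.64 TPM. The receiver of nitric oxide in muscle, GUCY1A3 (ENSCPOG00000011041), fell from 34.4 ± 8.63 to 11.7 ± 2.94 TPM. These 4 calls held. The ligand VEGFA (ENSCPOG00000013559) was at 51.8 ± 11.2 and 41.6 ± 8.77 TPM (adjusted P = 0.649), and PLVAP (ENSCPOG00000006951), a protein of fenestrated capillaries, at 119 ± 30.7 and 87.5 ± 14.5 TPM (adjusted P = 0.344). The 2 genes called higher, LYVE1 and NRP2 (ENSCPOG00000004390, 30.2 ± 10.2 to 58.4 ± 8.31 TPM), are known from lymphatic vessels. Of 20 genes for nitric oxide and arginine, 3 were higher and 5 lower (1 to 3 and 3 to 6 with 1 animal left out), and the cationic amino acid carrier SLC7A2 (ENSCPOG00000008648) fell from 34.1 ± 6.13 to 9.88 ± 3.4 TPM.

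Markers of leukocytes were called in both directions, at shares of 20.5% higher and 22.7% lower against 15.7% and 16.6% of all genes. Of 44 tested, 9 were higher and 10 lower (4 to 9 and 1 to 14 with 1 animal left out), at a median of -0.37 on the log2 scale. This median was above 0 in the 5 alternatives that left out genes under 3 TPM, where 29 members remained, and it was 0.23 in the one of them run with edgeR. The fit of LT 1 and LT 2 only called 6 higher and 1 lower, and that of LT 3 and LT 4 only called 7 higher and 11 lower. The members called higher include genes known from macrophages, which were picked here after their values were seen. CD163 (ENSCPOG00000005274), the hemoglobin scavenger receptor, was at 6.11, 3.34 and 5.63 TPM in MT and at 20.7, 13, 47.3 and 30.2 TPM in LT (log2 fold change 2.66, standard error 0.47, adjusted P = 0.00774). C1QB (ENSCPOG00000008124), a complement chain made by tissue macrophages, was at 54.7, 64 and 54.3 TPM in MT and at 195, 125, 199 and 136 TPM in LT (log2 fold change 1.69, standard error 0.19, adjusted P = 0.00313). CD68, CD14, SIGLEC1 and, from the list of pattern receptors, TLR8 were also called higher, with LT means of 52.1, 68.6, 8.99 and 3.86 TPM against 26.9, 28.6, 4.75 and 1.45 TPM in MT. Other genes of macrophages were not called, with CSF1R (ENSCPOG00000024309), the receptor of their growth factor, at 27.1 ± 3.18 and 31.2 ± 5.41 TPM (adjusted P = 0.082, 0.0368 to 0.33 over the alternatives) and AIF1 (ENSCPOG00000002068) at 23.6 ± 4.5 and 25.8 ± 6.61 TPM (adjusted P = 0.277). The members called lower include CD3G and IGJ, picked in the same way. CD3G (ENSCPOG00000022675), of the T cell receptor complex, was at 2.35, 5.87 and 5.54 TPM in MT and at 2.37, 1.14, 0.639 and 0.537 TPM in LT, and IGJ (ENSCPOG00000013974), the joining chain of secreted immunoglobulins, at 7.16, 72.4 and 71.9 TPM in MT and at 13.4, 2.73, 7.82 and 1.98 TPM in LT. For both, MT 1 lay among the LT animals. The other chains CD3D (ENSCPOG00000013163), at 2.89 ± 1.76 and 1.07 ± 0.561 TPM, and CD3E (ENSCPOG00000001430), at 5.39 ± 2.93 and 2.02 ± 1.33 TPM, were not called (adjusted P = 0.102 and 0.112). KIT (ENSCPOG00000011411), a receptor of mast cells and of pacemaker cells of smooth muscle, fell from 49.2 ± 5.52 to 17.9 ± 5.94 TPM. PTPRC (ENSCPOG00000009460), the marker CD45 of all leukocytes, was at 9.62 ± 0.848 and 6.89 ± 1.91 TPM and was not called (adjusted P = 0.227, and 0.028 without LT 1). CD163, C1QB, SIGLEC1, TLR8 and KIT held. CD14 was lost without MT 2 (adjusted P = 0.0598), CD68 without MT 3 (0.0621; up to 0.0902 over the alternatives), and CD3G and IGJ without MT 2 or 3 and in 3 or more other settings (up to 0.113 for each). Without MT 2, 1 leukocyte gene was called lower.

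Some genes of inflammation were called, and the balance of directions moved with the scaling of the libraries. Of 51 tested cytokines, chemokines and pattern receptors, 11 were higher (21.6%) and 5 lower (9.8%), against 15.7% and 16.6% of all genes. With 1 animal left out the counts were 5 to 9 and 3 to 5. By limma on log2(TPM + 1) 7 were higher and 9 lower and, with median-ratio scaling of these values, 13 and 4. The fit of all 10 animals called 7 higher and 1 lower. CXCL17 (ENSCPOG00000021240), a mucosal attractant of myeloid cells, was at 114, 171 and 179 TPM in MT and at 353, 438, 415 and 384 TPM in LT (log2 fold change 1.54, standard error 0.17, adjusted P = 0.00309, 0.0954 in the fit of all 10 animals). IL17B (ENSCPOG00000019682) was at 16.4, 26.3 and 15.6 TPM in MT and at 38.4, 37.8, 98.5 and 136 TPM in LT (adjusted P = 0.019, not called without MT 1 or 3, up to 0.0653). Neither IL1B nor IL8 was called, with IL1B (ENSCPOG00000001975), interleukin 1 beta, at 2.73 ± 1.68 and 1.97 ± 0.527 TPM (adjusted P = 0.59) and IL8 (ENSCPOG00000011103), a chemokine of neutrophils, at 5.26 ± 5.55 and 6.79 ± 3.57 TPM (adjusted P = 0.599). The antagonist of interleukin 1, IL1RN (ENSCPOG00000008700), was at 2.24 ± 0.781 and 7.5 ± 3.51 TPM (adjusted P = 0.0163, up to 0.091). Interferon response genes had 7 of 25 members higher and none lower, and 2 higher in the fit of all 10 animals. The 1 of these calls that held was BST2 (ENSCPOG00000010448), tetherin, which rose from 83.7 ± 24.1 to 189 ± 31.2 TPM. ISG15 (ENSCPOG00000013450) was at 42.4 ± 12.1 and 57.6 ± 18.5 TPM and was not called. Complement had 5 of 15 higher and 2 lower (2 to 5 and 1 to 3 with 1 animal left out, 2 higher without LT 3 or in the fit of all 10 animals). Secreted defence proteins and serpins had 6 of 26 higher and none lower (3 to 9 and 0 to 1), with 3 higher without MT 2 or MT 3.

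Other markers of composition gave no uniform picture. Fibroblast genes had 6 of 20 higher and 3 lower (3 to 7 and 2 to 4 with 1 animal left out, 3 higher without MT 2 or MT 3 and 2 in the fit of all 10 animals). Nerve and Schwann cell genes had 1 of 20 higher and 2 lower (0 to 2 and 2 to 3), and erythroid genes none of 7 higher and 1 lower (0 to 2 and 0 to 1). HBB (ENSCPOG00000001523), the beta globin that marks blood in the tissue, was at 64.8 ± 34.1 and 86.8 ± 22.3 TPM. The 1 nerve list gene that rose was TUBB3 (ENSCPOG00000002380), a neuronal tubulin, at 66.5, 8.56 and 17.1 TPM in MT against 116, 190, 232 and 310 TPM in LT, with the same order of MT animals as KRT14, and it was not called without MT 3 (adjusted P = 0.0612). PRPH (ENSCPOG00000014881), peripherin, a filament of peripheral neurons, fell from 3.25 ± 1.77 to 0.511 ± 0.213 TPM and held.

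Most tested genes of glycolysis and of the respiratory chain were called higher in LT. Of 28 tested genes of glycolysis and the hypoxia response, 18 were higher and 1 lower (11 to 20 higher with 1 animal left out), with a median log2 fold change of 0.94, and 11 of the rises held. LDHA (ENSCPOG00000011926), lactate dehydrogenase, was at 288, 206 and 368 TPM in MT and at 669, 840, 1212 and 1007 TPM in LT (log2 fold change 1.88, standard error 0.28, adjusted P = 0.00501). SLC16A3 (ENSCPOG00000025481), the exporter of lactate, was at 3.41, 3.76 and 3.47 TPM in MT and at 13.2, 20.2, 48.8 and 28 TPM in LT (log2 fold change 3.15, standard error 0.47, adjusted P = 0.00501). ALDOA (ENSCPOG00000007434), the aldolase of muscle and most other cells, was at 641, 577 and 705 TPM in MT and at 988, 1169, 1406 and 1383 TPM in LT (log2 fold change 1.13, adjusted P = 0.00511). In these genes LT 3 was highest, and the order of LT 1 and LT 2 below LT 3 and LT 4 followed that of the smooth muscle genes. With only LT 1 and LT 2, 10 genes of the list were higher and the median was 0.71, and with only LT 3 and LT 4 19 were higher and the median was 1.11. EGLN3 (ENSCPOG00000013369), an oxygen sensor induced by hypoxia, was at 3.75 ± 1.8 and 29.1 ± 17 TPM (adjusted P = 0.0145, 0.0568 without MT 2). CA9 (ENSCPOG00000000400), a carbonic anhydrase used as a marker of hypoxia, was at 5.19 ± 1.71 and 25.1 ± 18.8 TPM (adjusted P = 0.0202, not called without MT 2 or 3 or by limma on square-root TPM, up to 0.0692). HIF1A (ENSCPOG00000005317), the transcription factor itself, was at 871, 369 and 460 TPM in MT and at 770, 989, 1061 and 1081 TPM in LT (adjusted P = 0.0413, lost without MT 2 or 3 or LT 2, 3 or 4, up to 0.124), with MT 1 among the LT animals.

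Of 62 nuclear genes of the respiratory chain, 38 were higher and 1 lower (21 to 36 higher with 1 animal left out). The rises were small, with a median log2 fold change of 0.35, and 17 held. Their summed level was 14420 to 16060 TPM in MT against 16340 to 17190 TPM in LT, without overlap. COX5A (ENSCPOG00000024832) was at 236, 215 and 265 TPM in MT and at 368, 366, 401 and 362 TPM in LT (log2 fold change 0.83, standard error 0.10, adjusted P = 0.00348), and CYC1 (ENSCPOG00000013237), cytochrome c1, rose from 115 ± 12.3 to 159 ± 6.99 TPM. By limma on log2(TPM + 1) 20 were higher, and with the trend on gene length removed 24. In the fit of LT 1 and LT 2 only 13 were higher, and in that of LT 3 and LT 4 only 30 were. Of 33 genes of cholesterol and fatty acid synthesis, 20 were higher and none lower (13 to 22 higher with 1 animal left out), with a median log2 fold change of 0.78. HMGCS1 (ENSCPOG00000007115), the first committed enzyme, was at 47.2, 22.4 and 52.7 TPM in MT and at 59.7, 96.3, 121 and 131 TPM in LT (log2 fold change 1.51, adjusted P = 0.0198), and ACAT2 (ENSCPOG00000001672), which feeds it, rose from 24.2 ± 2.79 to 48.7 ± 6.79 TPM. In this list 2 calls held, which is also the number higher in the fit of all 10 animals, and 5 genes were higher with only LT 1 and LT 2 against 21 with only LT 3 and LT 4. In the fit of all 10 animals the adjusted P was 0.105 for HMGCS1 and 0.0793 for ACAT2 (0.000132 to 0.105 and 2.17e-10 to 0.0793 over the alternatives), and HMGCS1 was also not called without MT 2 (0.0506).

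For ribosomal protein genes the count of calls moved with the scaling of the libraries and the gene length trend. Their summed level was 81050, 83170 and 93870 TPM in MT against 67560, 65560, 67710 and 64860 TPM in LT, and 45 of 59 tested genes lay lower in LT than in MT in TPM without overlap, against 34.5% of all genes. In the edgeR test 12 were lower and none higher (3 to 11 lower with 1 animal left out), with a median log2 fold change of -0.18, while limma on log2(TPM + 1) called 41 lower. With median-ratio scaling of the same values limma called 12 lower. By edgeR on library totals 24 were lower, and with the trend on gene length removed 27. RPL13A (ENSCPOG00000012417) and RPL35A (ENSCPOG00000015446) were 2 of the 3 that held, with log2 fold changes of -0.52 and -0.43 from 1674 ± 212 and 1643 ± 169 TPM in MT.

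Immediate early genes had 12 of 27 members higher and none lower. FOS (ENSCPOG00000020774) was at 60.3, 29.9 and 46.4 TPM in MT and at 74.5, 158, 133 and 161 TPM in LT (log2 fold change 1.72, adjusted P = 0.00981), and JUNB (ENSCPOG00000020703) rose from 38.4 ± 4.68 to 75.9 ± 13.8 TPM. Of the 12 calls 3 held, and without MT 2 the number was 3. By limma on log2(TPM + 1) it was 6. Tested with only LT 1 and LT 2, 2 were higher, and with only LT 3 and LT 4, 11 were. Clock genes had 6 of 22 members lower and 1 higher (4 to 7 and 0 to 2 with 1 animal left out, 10 lower by limma on log2(TPM + 1)). NR1D2 (ENSCPOG00000004574), a repressor in the clock, was at 48.9, 65.6 and 48.9 TPM in MT and at 27.3, 26.8, 25 and 27 TPM in LT (log2 fold change -0.86, standard error 0.11, adjusted P = 0.00367), and PER3 (ENSCPOG00000022169) fell from 1.57 ± 0.517 to 0.35 ± 0.0767 TPM.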

How the data were processed

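RNA of the cervix of 7 guinea pigs, 3 MT and 4 LT, was analysed, with 3 NP animals as a reference. Libraries were made from poly(A) RNA and kept the strand. The authors aligned reads with TopHat2 and counted them per Ensembl gene with HTSeq (version 0.5.4p1 in the submitters' processing notes). The deposited table holds read counts per gene and TPM, which the authors computed from these counts by gene length and which sums to 1000000 in each animal. Stages were taken from the labels, and 0 columns of samples were left unused.

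Counts were tested with the quasi-likelihood test of edgeR 4.0.16 (R 4.3.3, TMM scaling, filterByExpr, Benjamini-Hochberg adjustment, threshold 0.05) on MT and LT animals. DESeq2 1.42.0 and limma 3.58.1 on log2(TPM + 1), log2(TPM + 0.1) and square-root TPM, for genes that average 3 TPM or more in a stage, were alternatives, as were other scalings and filters, thinned libraries, removal of the gene length trend, all 10 animals in 1 fit, and leaving out each animal. The study's own tests were run on square-root TPM. In simulated data for this comparison (13846 genes, 200 changed), 59% of changed genes were recovered, 100% of those changed 4-fold and 8% of those changed 1.5-fold, and 7.1% of calls were false. Every simulated gene had the same spread between animals (dispersion), and far fewer genes were changed than were called in the data. These rates are therefore those of the simulation only.

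The comparison, the 44 gene lists and the tests were chosen with earlier results of these data known. Lists were matched by gene name, and 1656 of 1917 symbols had a row. They are described by counts and medians, with no test. The text names the 12 largest rises and the 12 largest falls among called genes that have a gene name, reach a stage mean of 10 TPM and do not overlap between the stages, and members of the lists, the 3 most abundant and the 3 called members with the largest change first. Further list members were picked after their values were seen. Gene names follow the table, and reads shared between near-identical copies cannot be resolved from it. The number of animals limits the precision.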

Additional observations from a re-analysis of the deposited data

Results flagged for a closer look

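In 10 of the 211 genes named, 1 of the 4 LT animals stood apart from the other 3 by a gap beyond Dixon's 95% critical value for 4 samples. Chance flags about 1 in 20 groups, which is close to the share flagged here. LT 1 was apart in 5 of them. It was highest for MARCO, at 21.6 TPM against 5.97 to 8.56 TPM in the others, for PTH1R, at 7.65 TPM against 5.18 to 5.46 TPM, for AIF1, at 35.7 TPM against 21.9 to 23.4 TPM, and for PER3, at 0.464 TPM against 0.299 to 0.324 TPM, and lowest for VSIG8, at 4.28 TPM against 47.5 to 51.1 TPM. LT 3 was highest for IGFBP7, at 1048 TPM against 708 to 741 TPM, for NOS3, at 5.68 TPM against 4.39 to 4.41 TPM, and for COX5A, at 401 TPM against 362 to 368 TPM. LT 4 was highest for PTGES, at 6.53 TPM against 5.65 to 5.79 TPM, and for CENPI, at 22.2 TPM against 18.1 to 18.6 TPM. For the 8 of these genes that were called, all but CENPI and AIF1, the stages did not overlap with the animal included.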

How the results depend on the processing

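All 4474 calls together stayed within 1.5 times that number under the alternatives other than the replicate block and the omission of MT 2, and the range with 1 animal left out was 2376 to 4343, with 1036 to 2138 higher and 1340 to 2205 lower. With libraries scaled to their totals the split moved to fewer higher and more lower genes, with 1473 and 3171 by edgeR, 1095 and 3700 by limma on log2(TPM + 1), 1071 and 3678 on square-root TPM, and 1086 and 3664 on log2(TPM + 0.1). With median-ratio scaling limma on log2(TPM + 1) called 2256 higher and 2040 lower. Samples of the same replicate number did not deviate together (r = -0.129, -0.024 and 0.057), so the numbers do not pair the animals. With the replicate block 1497 genes were called, 700 higher and 797 lower, a fit that leaves fewer residual degrees of freedom. Chosen after seeing the data, a fit with LT 1 and LT 2 only called 1635 genes, 819 higher and 816 lower, and one with LT 3 and LT 4 only called 3872. LTF was not called in the comparison (adjusted P = 0.347, edgeR, and 0.16 to 0.796 over the alternatives other than these fits of LT pairs), but it was called higher with LT 1 and LT 2 only (log2 fold change 1.35, adjusted P = 0.0229) and lower with LT 3 and LT 4 only (log2 fold change -0.60, adjusted P = 0.0418). No other named gene was called in the opposite direction. Among the 211 named genes, the replicate block ended 69 calls, the fit with LT 1 and LT 2 only 66, the omission of MT 2 50 and of MT 3 43, and the fit of all 10 animals 32. Of the 101 calls of named genes that held, 24 were lost with the block (adjusted P = 0.0511 to 0.0884, edgeR), among them those of SDC1, LUM, TIMP3 and HPGDS. The cause was not tested. Genes that changed 1.5-fold were mostly missed in simulated data at this number of animals.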
